A study of Caenorhabditis elegans with 2 samples.

Results

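Of the 1021 peaks in the submitters' conservative list for the tagged protein Y79H2A.3, 353 had their summit in the start window of a protein-coding gene, or of several on the same strand. These single-strand promoter peaks made up 34.6% of the list (95% Wilson interval 31.7 to 37.5%) and lay in the windows of 338 of 19973 nuclear protein-coding genes, which is 1.69% of them. A start window ran from 1000 bp upstream to 200 bp downstream of any annotated transcript start, and the summit, the base of highest signal in a peak, decided the assignment. The peaks were thus selected on their own call and position, so their number, their nearness to starts and their height are given as description and without a test. Another 125 peaks of the list had genes on both strands in their windows and 543 lay outside all such windows.

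The data come from chromatin immunoprecipitation with sequencing of whole Caenorhabditis elegans young adults, 63 hours old, that were grown from bleached embryos held as starved first-stage larvae. The strain, RW12273, carries a CRISPR insertion at Y79H2A.3 on chromosome III, st12273[Y79H2A.3::TY1::EGFP::3xFLAG], which fuses TY1, EGFP and 3xFLAG tags to the protein, and an antibody against GFP was used on sonicated chromatin. There was 1 group of 2 biological replicates and no second condition, and whole animals mix the chromatin of all tissues. No input or control precipitation was analysed here, so a site that would also appear without the tagged protein cannot be told apart from a bound one.

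RefSeq names the product of Y79H2A.3 a C2H2-type domain-containing protein, and in many proteins with such zinc fingers each finger reads a short stretch of DNA. Promoters in this species are compact. Many nematode genes sit head to tail, some of them in operons, where a start can lie close behind the end of the gene before it. A site at a start on one strand can therefore lie in a short gap between genes that point the same way.

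The sequences below are those of the tallest promoter peaks and of peaks that share a word, since these show what the summits have in common and what they do not. Each runs 5′ to 3′ over 101 bp centred on the summit and is read from the WBcel235 assembly, which is the same as ce11. In the first set the capitals mark any of 4 overlapping CpG-rich words on either strand. They are CGCGCC, then GCGCGC, then CGCGCG, and last TCGCGC. The peaks at pgl-3, mog-4 and lea-1 stand among the tallest and hold none of them, while the others hold 1 or several. Those at T21B10.3, mcm-2 and lin-5 were picked for their many marked letters. Other tall peaks without a word, such as that at eel-1, are not printed. The set therefore does not show how common the words are, and 8 of the 25 tallest peaks held one.
pgl-3, chrV:4755429-4755529, plus strand: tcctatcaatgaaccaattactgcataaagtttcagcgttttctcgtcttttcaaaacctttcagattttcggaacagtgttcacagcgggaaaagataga
mog-4, chrII:14561834-14561934, minus strand: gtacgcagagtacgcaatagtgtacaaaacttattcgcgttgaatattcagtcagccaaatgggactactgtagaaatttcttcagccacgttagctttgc
lea-1, chrV:10023200-10023300, plus strand: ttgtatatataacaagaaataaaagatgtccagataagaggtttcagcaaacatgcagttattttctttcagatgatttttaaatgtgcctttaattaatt
rpi-2, chrIV:1711181-1711281, plus strand: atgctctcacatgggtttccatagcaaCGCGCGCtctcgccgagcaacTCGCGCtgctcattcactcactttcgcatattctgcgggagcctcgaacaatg
hcp-3, chrIII:9617085-9617185, minus strand: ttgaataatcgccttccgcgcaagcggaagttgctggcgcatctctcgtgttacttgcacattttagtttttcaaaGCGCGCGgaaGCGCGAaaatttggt
T21B10.3, chrII:8933843-8933943, plus strand: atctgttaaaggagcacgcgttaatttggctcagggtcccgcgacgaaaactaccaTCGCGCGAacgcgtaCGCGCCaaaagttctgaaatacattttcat
mcm-2, chrII:12006808-12006908, minus strand: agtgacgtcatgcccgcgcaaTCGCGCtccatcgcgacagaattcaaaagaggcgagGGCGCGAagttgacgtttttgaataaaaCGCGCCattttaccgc
lin-5, chrII:7860287-7860387, plus strand: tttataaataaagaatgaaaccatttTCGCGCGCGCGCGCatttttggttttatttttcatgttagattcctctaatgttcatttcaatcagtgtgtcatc

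In the second set the capitals mark GCGTGTTT, a word picked after the tallest sequences had been seen. It was present within 50 bp of the summit at 8 promoter peaks, against 1 window 300 bp upstream and 0 windows 300 bp downstream of the same 353 summits. The genome holds 2429 copies, of which a peak of the conservative list covered 20 and a ranked peak 591, so most copies had no peak. Peaks of the conservative list cover 0.289% of the nuclear genome and ranked peaks 21.8%. Of the 8 promoter peaks, 6 were above the upper quartile of height and 6 were in the lists of both replicates. The word was picked from tall peaks, so these counts follow in part from that choice. The strand given is the one printed.
rpl-3, chrIII:3867517-3867617, plus strand: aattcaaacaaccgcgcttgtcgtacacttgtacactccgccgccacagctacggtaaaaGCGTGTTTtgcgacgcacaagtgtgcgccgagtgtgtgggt
rpl-35, chrIII:7854631-7854731, plus strand: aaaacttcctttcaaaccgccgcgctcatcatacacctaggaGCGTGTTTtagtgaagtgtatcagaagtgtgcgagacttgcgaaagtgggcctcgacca
cdc-48.1, chrII:10563529-10563629, plus strand: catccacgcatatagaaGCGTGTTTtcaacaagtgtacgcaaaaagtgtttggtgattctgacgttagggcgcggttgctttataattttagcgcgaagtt
cox-5A, chrIII:12905108-12905208, minus strand: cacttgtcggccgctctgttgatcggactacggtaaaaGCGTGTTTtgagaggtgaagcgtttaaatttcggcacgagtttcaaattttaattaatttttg

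In the third set the capitals mark AACGTACCCCCT, 1 of 15 12-letter words tied for the largest excess at the summits over the 2 flanks, and the rarest of them in the genome. It was present at 7 promoter peaks and in 0 flanking windows, and in the 4 windows printed the letters before it are shared too, so the word marks a longer repeated stretch there. The median signal value of the 7 peaks was 136, from 77.8 at mec-6 to 245 at mtcu-2, and 6 of them were above the upper quartile of all promoter peaks. The genome holds 21 copies of the word, of which 15 lie in single-strand start windows. A peak of the conservative list covered 9 of the 21, where such peaks cover 0.289% of the nuclear genome, and a peak of any rank covered 16, where ranked peaks cover 21.8%. The word was picked for its excess at these summits, so its coverage by peaks follows in part from that choice and supports nothing. Between 13.5 and 78.6% of the 31-letter words in the 7 peaks occur once in the genome, and how reads from repeated sequence were placed is not given in the sources used here.
mtcu-2, chrII:10033630-10033730, minus strand: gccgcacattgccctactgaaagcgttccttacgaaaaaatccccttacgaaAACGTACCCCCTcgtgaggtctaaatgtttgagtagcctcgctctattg
unc-85, chrII:4701749-4701849, plus strand: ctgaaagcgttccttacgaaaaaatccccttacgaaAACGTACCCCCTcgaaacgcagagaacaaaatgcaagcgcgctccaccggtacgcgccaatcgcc
F44E7.4, chrV:5777074-5777174, minus strand: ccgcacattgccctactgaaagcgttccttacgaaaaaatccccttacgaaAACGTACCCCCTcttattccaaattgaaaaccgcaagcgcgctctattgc
vps-39, chrV:14038840-14038940, plus strand: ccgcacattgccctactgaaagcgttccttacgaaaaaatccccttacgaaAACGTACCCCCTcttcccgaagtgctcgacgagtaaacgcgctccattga

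The tallest promoter peak of all stood 287 bp upstream of rpl-3, which encodes a protein of the large ribosomal subunit. Its signal value, the authors' deposited peak height on a scale that is not stated, was 378, and the peak over it in each replicate's own list had a height of 161 in replicate 1 and 216 in replicate 2. The second stood 285 bp upstream of mog-4, a DEAH-box splicing helicase needed for the switch from sperm to oocytes, with a height of 298 and replicate heights of 135 and 157. Metabolic and replication genes followed. The peak 3 bp upstream of gpi-1, glucose-6-phosphate isomerase, reached 259, and that 662 bp upstream of rpa-2, a subunit of the single-strand DNA binding complex RPA, reached 257. The gene pgl-3, which encodes a component of P granules, had a peak of 245 whose replicate heights were 118 and 115.

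Below these the heights fell slowly. The eel-1 peak, at a HECT-type ubiquitin ligase, had a height of 244, and the maph-1.3 peak, which lay 53 bp past the start in the gene itself, had 240. The peak at lea-1, a gene of the late embryogenesis abundant family, had 233. At hcp-3, the centromeric histone H3 variant CENP-A, the height was 209 and the summit lay 665 bp upstream. The cdc-48.1 peak, at the gene for the segregase p97, had 197, and cpg-1, a chondroitin proteoglycan of the eggshell, had 193. The 25 tallest ran from 378 down to 174 at H41C03.3. Of these 25, 23 lay upstream of the nearest annotated start, at a median of 312 bp over all 25. Some of them, such as that at lea-1, lay inside the gene before a later start. In the lists of both replicates were 24 of the 25, the exception being pck-2, which was in that of replicate 1 alone. In 3 of the 25, at mog-4, rpa-2 and pck-2, under 50% of the 31-letter words were unique in the genome.

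Over all 353 peaks the median height was 82.8, with an interquartile range of 73.1 to 107. The both-strand peaks had a median of 96.1 and the peaks outside coding windows one of 80.8. Thus the promoter peaks were on the whole close in height to the rest of the list, with a long upper tail. A group of 15 had a height under 10, between 2.06 and 6.88, while the next peak stood at 10.9. Every one of these 15 overlapped or lay within 200 bp of a taller peak of the conservative list, against 2 of the other 338. The replicate peaks that overlap them had heights of 28.5 to 99.4 and 32.9 to 115 in replicates 1 and 2. Such a replicate peak can be the one that the taller neighbour overlies, so it need not give the low peak's own height. An example is the second peak at rps-8, with 4.71 in the combined list and 36.8 and 34.6 in the replicates, where the first peak, with 66.6, overlies the same replicate peaks.

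The list was made by comparing these replicates, so some likeness of their heights was a condition of entry, and the values are a description. The median was 41.2 in replicate 1, over 351 peaks, from 26.2 to 161, and 44.9 in replicate 2, over all 353, from 29.6 to 216. At the 351 sites with a peak in both, the ratio of replicate 2 to replicate 1 had a median of 1.10, and 344 sites (98.0%) were within 2-fold, against 99.2% of both-strand peaks and 97.7% of peaks outside windows. The summits of the replicates lay a median of 32 bp apart. The most uneven sites were tos-1, with 75.6 in replicate 1 and 34.2 in replicate 2, and sco-1, with 30.9 and 66.4. Other sites higher in replicate 1 were skpt-1 (56.9 and 30.1) and F52B11.2 (83.3 and 47.6), and others higher in replicate 2 were sre-23 (41.0 and 86.8) and acs-13 (38.6 and 80.5). The 2 peaks with none in the ranked list of replicate 1 were at R02F2.1 and cec-6, with combined heights of 60.7 and 51.2.

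**Figure D1:**
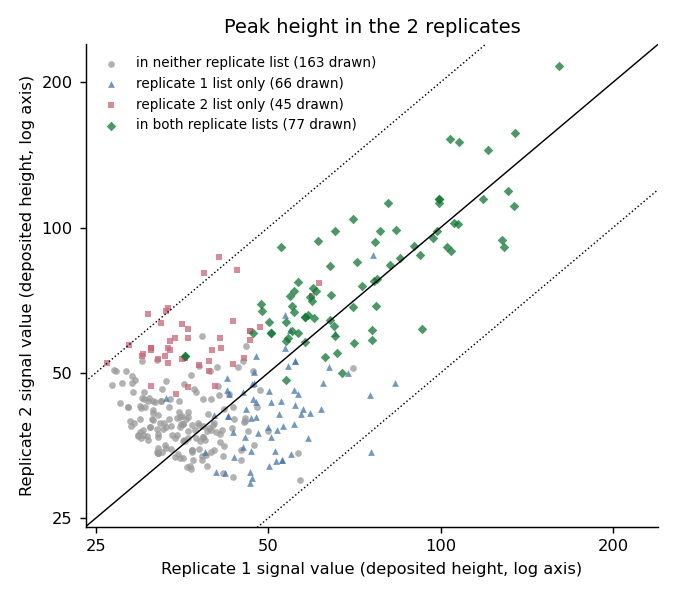
Deposited signal value of the replicate peak over each promoter peak, replicate 1 on the x axis and replicate 2 on the y axis, both on log axes, for the 351 sites with a value in both. The solid line marks equal heights and the dotted lines a 2-fold difference, inside which 344 sites lie, and the symbols show in which replicates' thresholded lists the site appears.

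Taller peaks were more often in the replicates' own thresholded lists. Those lists are cut at a threshold, so this follows in part from the cut and is a description. Of the 353 promoter peaks, 77 (21.8%, Wilson interval 17.8 to 26.4%) overlapped a peak in the thresholded list of both replicates, against 22.2% of the other 668 peaks of the conservative list. The share was 31.2% for both-strand peaks and 20.1% for peaks outside windows. A further 66 promoter peaks were in the list of replicate 1 only and 45 in that of replicate 2 only, which leaves 165 (46.7%) in neither. Median heights were 137 for those in both lists, 90.2 and 91.0 for those in 1 list, and 73.3 for those in neither. The peaks in neither list thus enter only through the comparison of the replicates, in which the threshold was an irreproducible discovery rate (IDR) of 0.01. The peaks nearest that threshold had a −log10 IDR of 2.00047 at obr-2 (height 74.6) inside and 1.99856 at H13N06.7 (height 57.4) outside.

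Summits were most frequent a short way before the start. The median position was 252 bp upstream of the nearest start, with an interquartile range of 63 to 506 bp. By that start 295 summits were upstream and 58 were at or past it. The nearest start was the most upstream one of its gene for 299 of the 353 peaks. Some summits counted as upstream therefore lay inside the gene, before a later start, as at lea-1 (411 bp). Since the amount of single-strand window sequence differs with distance, the density was taken over that sequence. It was highest 201 to 300 bp upstream, where 53 summits gave 26.8 per Mb, and was 20.3 per Mb in the first 200 bp upstream, 9.35 per Mb from 501 to 1000 bp upstream and 13.3 per Mb past the start. Summits within 50 bp of the start numbered 43, a count not taken per Mb. The 100 bp before the start held 48 summits and the 100 bp from the start onward held 32. The median follows the window chosen, and was 203 bp with a window of 500 bp upstream and 100 bp downstream and 379.5 bp with one of 2000 and 500 bp.

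**Figure D2:**
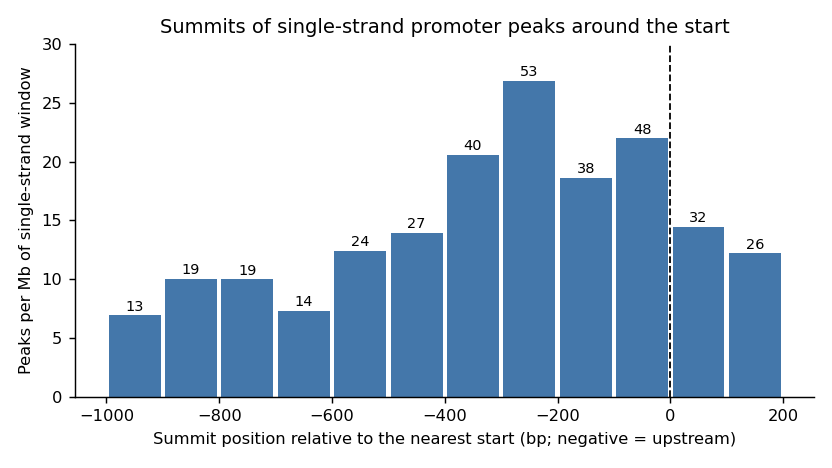
Number of promoter peaks per Mb of single-strand window sequence in bins of 100 bp around the nearest start, with the number of peaks above each bar and the start marked by the dashed line. The tallest bar, 201 to 300 bp upstream, holds 53 peaks at 26.8 per Mb.

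At the edges of the window the last summits inside were those of ift-43, 986 bp upstream (height 197), and dnc-1, 984 bp upstream (93.5), and the first outside was that of ret-1 at 1002 bp (92.1). Downstream, nstp-10 at 197 bp (108) was the last inside and R08C7.12 at 213 bp (77.9) the first outside. In the genome as a whole, single-strand windows held 14.7 peaks per Mb over 23.9% of the sequence. Both-strand windows held 53.1 per Mb over 2.35%, and the remaining 73.8% held 7.34 per Mb. Density was thus between that of both-strand windows and that of sequence outside them.

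Of the 353 summits, 214 (60.6%) lay between genes and 92 (26.1%) inside the gene whose start they were assigned to. Another 32 lay inside a different gene on the same strand, as at mtcu-2, and 15 inside one on the opposite strand, as at kel-3 and ift-43. The genes themselves were often tightly packed behind a neighbour. The nearest coding gene upstream pointed the same way for 233 of the 338 genes (68.9%), against 54.6% of all coding genes, a share that the single-strand rule itself raises. Among genes with such a neighbour, the one upstream ended within 500 bp of the start for 131 of 233 (56.2%, Wilson interval 49.8 to 62.4%), against 3612 of 10898 (33.1%) of all coding genes. The median gap to the gene upstream was 600.5 bp against 1156 bp. Genes with a promoter peak spanned a median of 2596.5 bp, against 2018 bp for coding genes with no peak of the list in their windows.

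In 343 cases a peak lay in the window of 1 gene only. The crowded case was a peak in the windows of rpl-27, egl-30 and C53H9.4, whose summit was 11 bp past the start of rpl-27 and 767 bp upstream of that of egl-30, the G protein alpha subunit Gq. Its height was 82.4, and a separate peak of 93.2 stood 60 bp upstream of egl-30 itself. Most genes, 314 of 338, had 1 promoter peak, 22 had 2 and 2 had 3. The kin-35 gene had a pair of tall ones, 228 at 312 bp and 171 at 976 bp upstream. At klp-7, a kinesin-13 of the spindle, there was a peak of 96.8 at 931 bp upstream and another of 70.4 at 84 bp past a start.

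Some of these peaks stood nearer to a small RNA gene than to the coding gene that placed them here. Of the 353, 82 were also in the window of a noncoding gene, and 41 in that of a tRNA, snoRNA or snRNA gene. In 34 the start of such a structural RNA gene was nearer than any coding start. The peak assigned to F59C6.18, with a height of 189, was 794 bp upstream of that gene and 72 bp upstream of the snoRNA gene F59C6.15. The peak assigned to H41C03.3, with 174, was 904 bp upstream of the coding start and 8 bp past the start of sls-2.1, which makes the SL2 trans-splicing RNA. Likewise the egg-5 peak of 130 was 720 bp from egg-5 and 103 bp past the start of sls-2.4. With these 41 peaks left out, 312 peaks at 299 genes remained.

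The summits were rich in G, C and CpG, a property on which the rule did not act. Within 50 bp of the summit 43.9% of bases were G or C, against 35.8% around the points 300 bp upstream and 37.7% around those 300 bp downstream on the gene strand. The corresponding point of all coding genes, 252 bp before the start, had 34.4%. Values given below for all coding starts refer to this point and not to the start itself. CpG dinucleotides numbered 6.13 per 100 bp at the summit, against 3.49 and 3.98 in the flanks and 3.02 at all coding starts. Relative to the C and G content the ratio of observed to calculated CpG was 1.27 at the summit, 1.09 and 1.12 in the flanks and 1.03 at all starts. Both-strand peaks had 7.11 CpG per 100 bp and peaks outside windows 4.92.

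**Figure D3:**
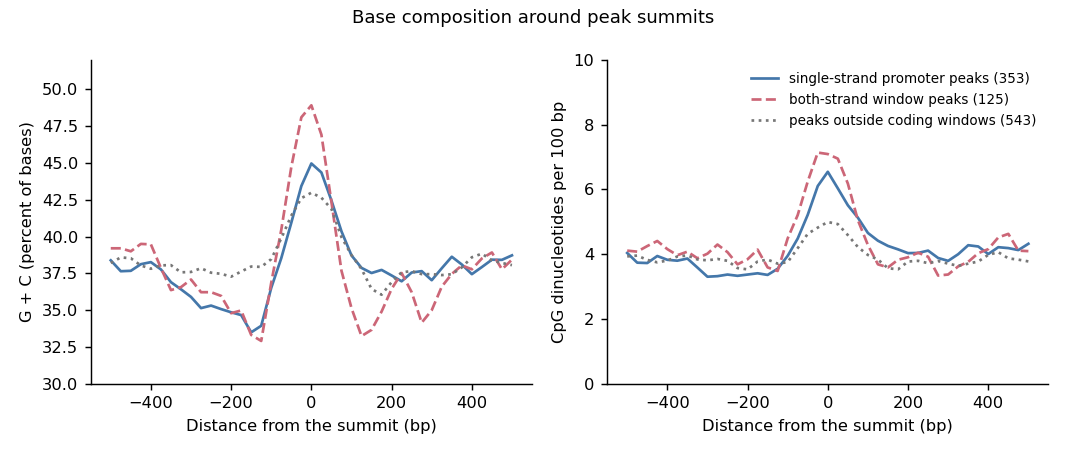
Percent G + C (left) and CpG dinucleotides per 100 bp (right) in 51-bp windows stepped along 500 bp to each side of the summit. The promoter peaks, solid, are drawn on the strand of the gene with upstream to the left, and rise at the summit to values between those of both-strand peaks, dashed, and peaks outside coding windows, dotted.

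The words most in excess at the summits had the same character. Of the 25 6-letter words, among 2080 scanned on either strand, with the largest excess over the flanks, 24 contain CpG. CGCGCC was present at 51 summits (14.4%), against 5 upstream and 8 downstream windows and 1.77% of all coding starts. CGCGAA was present at 50 summits against 13 and 12 windows, and GCGCGC at 42 against 5 and 5. The exception without CpG was GGTCTC, at 39 summits against 11 and 6 windows, or 11.0% against 2.89% of all coding starts. CTGCGTCT was present at 15 summits against 3 and 2 windows. CGCGCC showed no clear side, with 29 peaks on the gene strand and 26 on the other, some on both. Several A-rich words were less frequent at summits than in the flanks, such as AAGAAA, at 37 summits against 93 and 72 windows. The TATA-box word TATAAA differed little from the flanks, at 30 summits against 40 and 32 windows. Its share of 8.50% (Wilson interval 6.02 to 11.9%) was below the 13.0% of all coding starts. A larger difference from the flanks was that of TTTCAG, which holds the splice acceptor consensus of this species. It was present at 45 summits against 68 and 89 windows.

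At least 1 of the 4 CpG words printed in capitals above was present at 82 of the 353 summits, or 23.2% (Wilson interval 19.1 to 27.9%). The same words were in 11 windows (3.12%) upstream, 17 (4.82%) downstream and 3.56% of the windows 252 bp before all coding starts. The both-strand peaks had 28.8% and the peaks outside windows 10.1%. Most promoter peaks, 271 of 353, had none, which includes the 5 tallest apart from rpa-2. These words were known from earlier results of the whole list, of which the promoter peaks are a part, so the count describes these peaks and is not separate evidence.

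Tall peaks held such a word more often. The share was 34.1% in the 88 tallest peaks and 33.0% in the next 88. It was 15.9% in the 88 after those and 10.1% (5.41 to 18.1%) in the 89 lowest. These lowest peaks include the 15 of height under 10 beside a taller peak, none of which had a word, so part of the fall comes from them. Peaks with such a word had a median height of 95.7, and those without one of 80.4. In replicate 1 the medians were 46.0 and 40.1, and in replicate 2 they were 51.7 and 43.7, so the order was the same in each. The ranges overlapped almost wholly, from 56.5 to 257 with a word and from 2.06 to 378 without. By position, 30.5% of summits 1 to 250 bp upstream had a word, 22.6% of those 251 to 1000 bp upstream and 10.3% of those at or past the start.

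**Figure D4:**
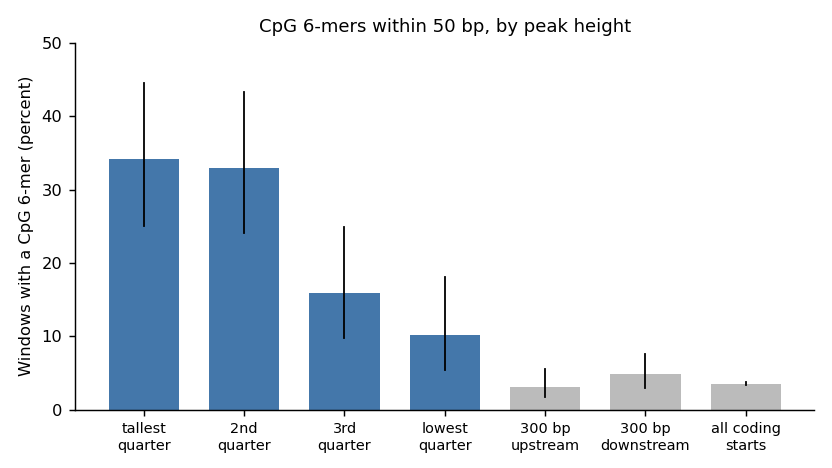
Percent of 101-bp windows with at least 1 of the 4 CpG words, for promoter peaks in 4 groups by height (first 4 bars). Grey bars are the points 300 bp to each side and, labelled all coding starts, the points 252 bp before the starts of all coding genes. Lines are 95% Wilson intervals, for counting error alone. The bars by height run from 34.1% in the tallest group to 10.1% in the lowest, which includes the 15 peaks of height under 10.

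The lists with the largest shares of genes with a promoter peak were those of central carbon metabolism, DNA replication and the cell cycle, histones, and germline and oogenesis. The 32 lists held 3747 genes, of which 82 (2.19%) had a promoter peak, against 1.69% of all coding genes, and 256 of the 338 genes were in no list. In DNA replication and the cell cycle, 10 of 72 genes (13.9%) had one. Beside rpa-2 (257) and cdc-48.1 (197) these were pcn-1, the sliding clamp PCNA, with 127, the replicative helicase subunits mcm-2 and mcm-4 with 93.6 and 89.4, and 5 others. Both replicates had similar heights at pcn-1 (64.1 and 64.3), whereas mcm-2 had 58.8 in replicate 1 and 36.7 in replicate 2. Summits at this list lay 104 to 662 bp upstream. The count was 4 from the list of replicate 2 alone and 7 from that of replicate 1 alone.

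In the list of germline and oogenesis genes, 9 of 68 (13.2%) had a promoter peak. These were pgl-3 and cpg-1, described above, the eggshell proteoglycan genes cpg-2 (96.0) and cpg-4 (70.1), the egg activation genes egg-5 (130) and egg-4 (107), egg-1 (82.9), needed on the oocyte for fertilisation, and the RNA-binding protein genes puf-11 (73.2) and puf-9 (68.1). At egg-1 the replicates gave 31.3 and 56.3 and at egg-4 they gave 43.4 and 63.9, so replicate 2 was higher at both. Of the 9, 3 were in the list of replicate 1 and 5 in that of replicate 2, while over all promoter peaks the shares were 40.5% and 34.6%. Built from 1 replicate's list alone, the count was 5 with replicate 2 and 4 with replicate 1. The list of 34 meiosis genes had 2, zim-1 (77.9) and him-17 (76.7), and the 31 major sperm protein genes had 0. Counting 3 genes as the limit that a count of 0 allows, that is a share of up to 9.68%, and the exact interval reaches 11.2%.

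Histone genes numbered 11 of 81 (13.6%). The linker histone gene hil-4 had its summit 24 bp upstream (height 82.9), and his-72, which encodes the replacement histone H3.3, had one 221 bp upstream (59.2) and another 103 bp past a start (41.0). The his-72 summit of height 59.2 was nearer to the snoRNA gene Y49E10.36, 159 bp past its start. The other 9, all core histone genes of clusters, had their tallest summits 608 to 882 bp upstream, with heights from 61.5 at his-61 to 121 at his-58. One his-58 gene had a second, low peak of 5.91 at 980 bp, next to its peak of 121. The annotation gives the symbol his-58 to 2 genes, and both had a peak, with 121 and 80.5. With a window of 500 bp upstream and 100 bp downstream the count was 3, and with one of 2000 and 500 bp it was 5. From the list of replicate 2 alone it was 4 and from that of replicate 1 alone 8. Core histone genes are near copies of one another, and between 52.3 and 100% of the 31-letter words in these 9 peaks were unique.

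Peaks at housekeeping genes ranged from the tallest of all to heights below the median of all promoter peaks. Of 81 ribosomal protein genes 6 (7.41%) had a promoter peak, rpl-3 (378), rpl-35 (208), rps-24 (150), rpl-14 (85.2), rpl-27 (82.4) and rps-8 (66.6), and 14 more had a peak only in a both-strand window. In central carbon metabolism 3 of 19 genes had one, gpi-1 (259), gpd-1, a glyceraldehyde-3-phosphate dehydrogenase (129), and the aldolase gene aldo-2 (105), and all 3 were in the lists of both replicates. The exact 95% interval of this share runs from 3.38 to 39.6%. Of 46 respiratory chain genes 3 had one, the cytochrome oxidase subunit genes cox-5B (147), cox-5A (137) and cox-6A (76.0). The cox-6A summit was 904 bp upstream of that gene and 78 bp past the start of the snRNA gene F54D8.7. Without windows of structural RNA genes the respiratory chain count was 2. The heat shock cognate hsp-1 had 158 and the SUMO gene smo-1, in no list, had 62.2.

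Chromatin regulators gave 3 of 92, with lin-9, a subunit of the DRM complex, at 119 (66.0 and 54.9 in the replicates), met-1 at 67.6 and lin-52, a second DRM subunit, at 61.4. The lin-52 summit was 705 bp upstream of that gene and only 23 bp upstream of ZK632.9, and its peak was in neither replicate's list. Chromatin regulators gave 1 from the list of either replicate alone. Kinetochore and spindle genes gave 3 of 48, hcp-3, klp-7 and sas-7, and 6 with the list from pooled reads. A peak only in a both-strand window was present at 8 more kinetochore and spindle genes and 7 more chromatin regulators. For replication and cell cycle genes that number was 1, so the single-strand rule leaves out unequal parts of these lists. In the large families of differentiated cells promoter peaks were rare. Chemoreceptor genes gave 2 of 1205 (0.166%, exact interval 0.0201 to 0.598%), sre-23 (119) and srh-76 (92.7), nuclear hormone receptor genes 1 of 272, nhr-255 (68.2), and collagen genes 1 of 170, col-52 (63.6). The sre-23 summit was 601 bp from that gene and 42 bp upstream of the snoRNA gene ZK265.10, and the nhr-255 summit was 557 bp from its gene and 3 bp past a tRNA start. Without windows of structural RNA genes the chemoreceptor count was 1 and the nuclear hormone receptor count 0. With the window of 500 and 100 bp both were 0, and from either replicate's list alone they were 1 and 0. There was 1 among 139 neuron markers, mec-6 (77.8), one of the 7 peaks with the 12-letter word. C-type lectin, homeobox, vacuolar ATPase and intestine lists gave 0. By the limit of 3 genes this allows up to 1.25, 4.76, 14.3 and 7.69%, and the exact intervals reach 1.53, 5.69, 16.1 and 9.03%.

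**Figure D5:**
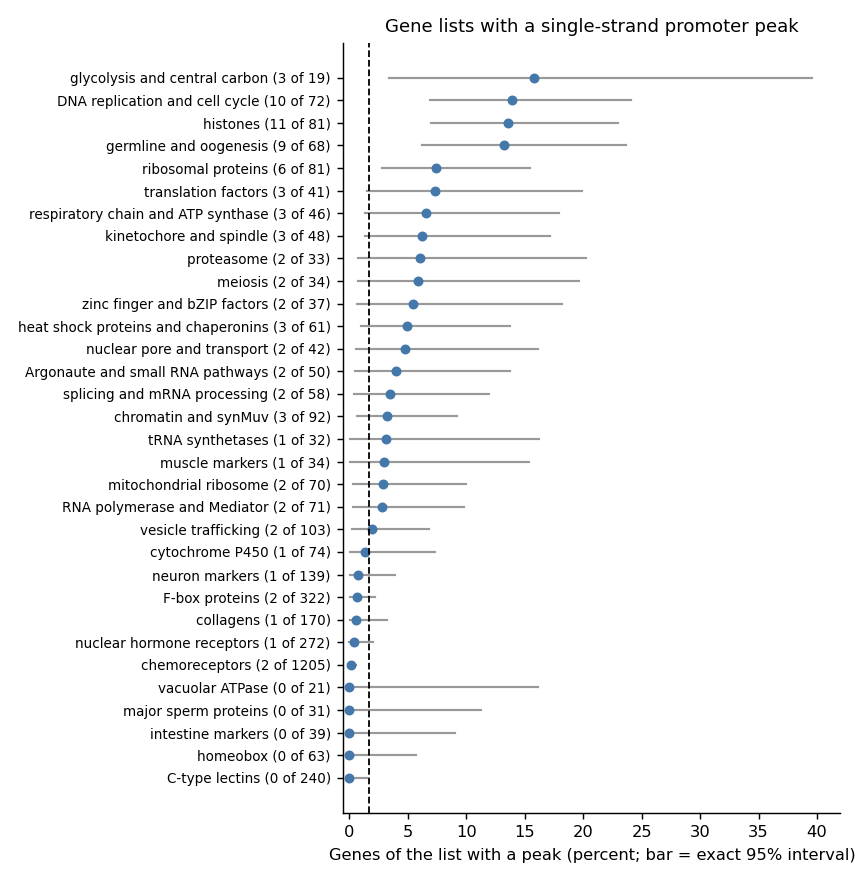
Percent of the genes of each of 32 lists that have a promoter peak, with exact 95% intervals that cover counting error over genes only, and the numbers beside each name. The dashed line is the 1.69% of all coding genes, and replication, histone and germline lists lie to its right while chemoreceptor genes, at 0.166%, lie to its left.

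The peaks were unevenly spread over the chromosomes. Chromosome I had 94, or 27.8 per Mb of single-strand window, followed by III with 61 (20.4 per Mb). Chromosome IV had 70, II had 56 and V had 61 (10.6 per Mb). The X chromosome had 11 (2.94 per Mb), which is 3.12% of the promoter peaks (Wilson interval 1.75 to 5.49%), while it holds 13.7% of the coding genes. Some of these 11, such as those assigned to idpp-5 and cyp-43A1, stood nearer to a tRNA start than to the coding start. Without windows of structural RNA genes the X share was 2.24%. None of the 11 was among the 25 tallest promoter peaks, the highest being that of T13C5.6 at 95.4, with 47.7 and 43.5 in the replicates. Others were the endocytic adaptor gene epn-1 (89.4), whose summit is crowded with CpG words, the elongation factor gene eef-1A.2 (81.1) and puf-9 (68.1). On the 5 autosomes 223 of 342 peaks (65.2%) lay in the middle 50% of the chromosome, against 55.7% of autosomal coding genes.

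At the tagged gene itself there was no promoter peak. The start window of Y79H2A.3 held 5 peaks of the ranked list, the tallest with a height of 48.3 and a −log10 IDR of 0.200, far under the threshold of 2.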

How the data were processed

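Peak lists on ce11 were used as the authors deposited them: a conservative thresholded list and a ranked list that compare the 2 replicates, a list from pooled reads, and a thresholded and a ranked list for each replicate. The deposited notes give file types and the assembly; they name no aligner, peak caller or filter, and these steps are therefore unknown here. Each deposited peak has a score, which rises as IDR falls, a signal value (peak height, scale not stated) and a summit offset, and ranked lists hold the deposited −log10 of the global IDR. Of 120 columns, 96 were not used. The files hold no read counts, so depth is unknown, and intervals reflect counting error alone, over peaks or genes.

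Summits were assigned with Python 3.11.15 (numpy 2.4.6, scipy 1.17.1) to transcript starts of Ensembl release 115. Replicate heights are those of the overlapping peak with the nearest summit in each replicate's ranked list, without rescaling, so a difference between replicates may be one of scale. A peak was in a replicate's list if they shared at least 1 bp. Sequence windows were 101 bp, and the flanks lay 300 bp away. Uniqueness was the percent of 31-mers found once in the nuclear genome. The assignment and the word scan were tested on simulated data.

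With 1 group and peaks selected by the measurement, no test was made: peaks and genes are not replicates. The peaks, gene lists and words were chosen with earlier results of these data known. Genes named are, by rule, the 25 tallest, up to 4 per list, the extremes of the replicate ratio, the peaks nearest each window edge and the IDR threshold, those in windows of most genes, and Y79H2A.3; others named were chosen after their values were seen. Alternatives were other windows, starts, lists, an IDR of 0.001, overlapping peaks counted once, and peaks near structural RNA genes or poorly unique left out.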

Additional observations from a re-analysis of the deposited data

Results flagged for a closer look

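Past the IDR threshold, 44 ranked peaks were missing from the conservative list. Of these, 1 lay in a single-strand start window, 869 bp upstream of clec-9, with a height of 188 and a −log10 IDR of 2.86, which would have placed it among the 25 tallest promoter peaks. The deposited notes list one more parent file of unstated kind for the thresholded lists than for the ranked ones, and its part in the difference was not tested.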

How the results depend on the processing

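Several results moved with the window, the list or the IDR threshold. With a window of 500 bp upstream and 100 bp downstream the median height was 88.4 and the median distance 203 bp; with 2000 and 500 bp the distance was 379.5 bp. At an IDR of at most 0.001 there were 131 peaks at 125 genes, of which 34 were in the gene lists, with 57.3% in both replicate lists, a median height of 119 and 29.0% with a CpG word. Within 25 bp of the summit 11.9% had a CpG word and within 100 bp 29.2%. From the list of 1 replicate alone, on its own height scale, there were 139 to 158 peaks at 133 to 155 genes, 40 to 48 of them in gene lists, with median heights of 54.8 to 61.3, distances of 289 to 307 bp, CpG words at 25.9 to 29.5% and an X share of 0.719 to 3.16%. The genes shared with the 338 were 118 of the 133 from replicate 2 and 132 of the 155 from replicate 1, and 259 of 309 from pooled reads. The pooled list, the most upstream start of each gene, overlapping peaks counted once, and leaving out peaks near structural RNA genes or poorly unique left the totals and shares over all promoter peaks within 1.5 times or within their intervals, but not the small counts of single gene lists. For single gene lists, the histone count of 11 was 3 in the narrow window and 5 in the wide one, 4 to 8 from 1 replicate and 4 at the stricter IDR. Replication and cell cycle genes were 10, then 4 to 7 from 1 replicate and 4 at the stricter IDR, and germline genes 9, then 4 to 5 and 5. Kinetochore genes went from 3 to 6 with pooled reads. C-type lectin genes went from 0 to 1 in the narrow window, and vacuolar ATPase genes from 0 to 1 in the wide one. Central carbon genes were 3 under every alternative run. Depth is unknown, so a gene without a peak is not shown to be unbound. No paired analysis was possible because there is 1 group and no test.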

Other observations

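On the gene strand, a pair of words at the summits had a direction. AAATGT was present on the gene strand at 41 summits and its reverse complement at 12, and TATTTG at 28 against 5. The gene-strand counts in the flanks were 25 upstream and 28 downstream for AAATGT, and 23 and 21 for TATTTG. These were the top 2 of a scan over all 6-letter words, chosen after their values were seen, and were not tested.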
